A study of Mus musculus with 8 samples.

Results

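Peaks of DDX5 binding that lay in exons of non-coding transcripts were collected from 3 peak lists of intestinal epithelial cells (IECs) of the mouse. DDX5 is a DEAD-box RNA helicase, and its binding was read by eCLIPseq, in which RNA held to the protein by UV light is pulled down with an antibody (immunoprecipitation, IP) and sequenced beside a size-matched input library made without IP. A peak was a member when it overlapped an exon of a non-coding GENCODE M21 transcript and no coding sequence or UTR on its strand. Peaks on genes of ribosomal, small nuclear, small nucleolar and Cajal body RNA, microRNA and miscellaneous RNA, and on Malat1 and Neat1, were left out. The rule took 74 of 1278 peaks in the small intestine list, 378 of 16455 in that of colon mAb and 200 of 9146 in that of colon rAb, which were kept apart.

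The labels gave 8 samples, all of strain C57BL/6 and all IECs loosened with EDTA. Small intestine IECs came from wild-type female mice of 8 weeks, with 2 CLIP samples and 2 input samples, and 1 merged list of peaks was deposited for them. Colonic IECs had 1 CLIP sample and 1 input sample for each of the antibody names mAb and rAb, yet the label of both CLIP samples carries the same catalogue antibody. The genotype label of the colon samples was wild type, whereas their growth protocol named mice of 120 days with the alleles Apcfl/+ CDX2Cre, in which a Cre driven by Cdx2 acts in gut epithelium, so genotype and age of the colon mice are uncertain here. The study itself names wild-type mice for its colon eCLIPseq, and its methods give a younger age for eCLIPseq mice. The names of the colon lists mark each as merged from 2 replicates. Small intestine libraries were paired-end and colon libraries single-end, so tissue, protocol, list selection and possibly genotype cannot be told apart. With 1 list per group and no values per replicate analysed here, no test between lists was possible, and all intervals below are exact Clopper-Pearson 95% intervals that cover counting error only.

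Long non-coding RNAs are transcribed by the same polymerase as mRNA, are mostly spliced, and often stay in the nucleus. Xist coats the inactive X chromosome in female cells, other members act on neighbouring genes, host small nucleolar RNAs in their introns or have no known role. Many protein-coding genes also give rise to transcripts without a reading frame, such as those that keep an intron, and genes of splicing factors are known for such transcripts. DDX5 is a nuclear helicase that unwinds structured RNA in splicing, microRNA processing and ribosome formation, and it is known to work with non-coding partners such as the steroid receptor RNA activator Sra1 and the RNA of RNase MRP, Rmrp.

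The middle 30 bases of the sites that recur below are shown so that their letters can be compared, on the strand of the RNA and from the GRCm38 genome of RefSeq. Where a site is shorter than 30 bases, the stretch includes bases beside it. Runs of GGGG are in capitals in the first 7, which are the 4 neighbouring Xist sites near the start of that RNA from 5′ to 3′, 1 of the 4 intervals on Gm10710, and the C230096K16Rik sites of lowest and highest fold, the former shared with the colon. The Gm10710 interval shown has 4 bases and holds no such run itself. Its first marked run lies in another of the 4 intervals, and the second lies outside all of them.
Xist, chrX:103482174-103482203, minus strand: gtgcGGGGttgcgggattcgccttgatttg
Xist, chrX:103482134-103482163, minus strand: tgcGGGGttgtgctagccggaagtagaaag
Xist, chrX:103482071-103482100, minus strand: gcggaagccgcagaggactaGGGGataggg
Xist, chrX:103482029-103482058, minus strand: gtGGGGattgggcagggtgtgtgtgcatat
Gm10710, chr3:83127993-83128022, minus strand: ggcgccgcGGGGccgcccacGGGGtgaccc
C230096K16Rik, chr5:64804006-64804035, plus strand: gataGGGGaactcggtggattgggagcccg
C230096K16Rik, chr5:64804383-64804412, plus strand: gactgcctttGGGGacttggagagaacctg
The next 4 are colon sites past the cutoff with both antibody names. Capitals mark TTCCGATCT, the last letters of a sequencing adapter used in Illumina libraries.
Gm38077, chr9:105064802-105064831, plus strand: cgggctcTTCCGATCTtagagaagttactg
Ak7, chr12:105747363-105747392, plus strand: cagagctcTTCCGATCTggttctaaaatgc
Gm805, chr12:86192647-86192676, plus strand: tcctcagaatccaaccgcttcagtgggtgt
Mettl8, chr2:70976565-70976594, minus strand: aaataaatatacactagcgtcaataaatgc
The last pair is AA474408, the single gene with a member site in the small intestine and in the rAb list, shown for the small intestine and then for rAb.
AA474408, chr7:110059746-110059775, minus strand: ttgatccttcgatgtcggctcttcctatcg
AA474408, chr7:110059792-110059821, minus strand: gatgtcagaaaagttaccacagggataact
These letters carry no run of GGGG, and they read like large-subunit ribosomal RNA. The ribosomal reference searched here held a fragment of that RNA only, and gave no match at these sites.

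The authors gave each peak a log2 fold, the reads of IP over input after scaling to read depth, and a −log10 p of the same comparison. A peak with both values over 3 is called a site here. All peaks of the small intestine list were already past this cutoff, so all 74 members were sites, beside 100% of the whole list. In the mAb list, 10 of 378 members were sites, or 2.65% (1.28 to 4.81%), where 1.22% of all peaks passed. In the rAb list, 8 of 200 members were sites, or 4.0% (1.74 to 7.73%), where 1.99% of all peaks passed. Members made up 5.79% (4.57 to 7.21%) of the small intestine sites, 4.98% (2.41 to 8.96%) of the mAb sites and 4.40% (1.92 to 8.48%) of the rAb sites. The shares of sites lay close together in the 3 lists, with intervals that overlapped.

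The carriers of these exons were divided between genes with no coding transcript and coding genes with a non-coding transcript, as the plot of carrier genes shows. In the small intestine, 33 members lay on lncRNA genes, 40 on non-coding transcripts of coding genes and 1 on a pseudogene, Gm8979, and together they fell on 35 genes. In the mAb list the same classes held 163, 202 and 12 members, with 1 more on a ribozyme gene, over 230 genes. In the rAb list they held 95, 88 and 16, with 1 on a ribozyme gene, over 121 genes. The share of sites on genes without any coding transcript was 45.9% (34.3 to 57.9%) in the small intestine, 4 of 10 (12.2 to 73.8%) for mAb and 5 of 8, or 62.5% (24.5 to 91.5%), for rAb. These intervals overlapped, and the colon shares rest on 10 and 8 sites. The Gm38077 site, counted in both colon shares, also lay on a non-coding transcript of the coding gene Mrpl3, so its class is open.

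**Figure D1:**
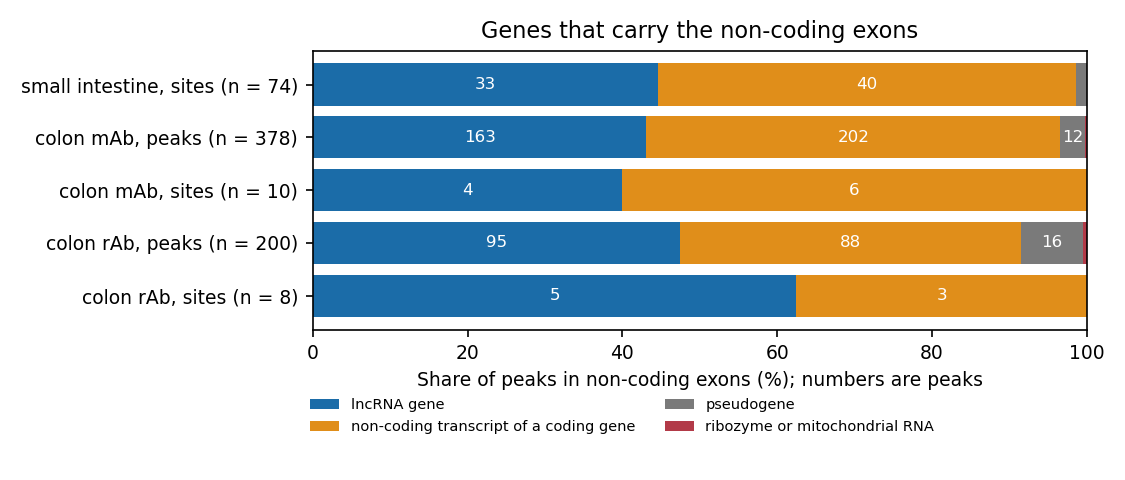
Share of member peaks, in percent, by the kind of gene that carries the non-coding exon, with the number of peaks written in each block. The small intestine list and the colon lists each divided mainly between lncRNA genes (blue) and non-coding transcripts of coding genes (orange), and the 10 and 8 colon sites included no pseudogene.

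Log2 folds of small intestine members ran from 3.01 to 6.80 with a median of 4.35, beside a median of 4.29 over all 1278 peaks of the list. Members on lncRNA genes had a median of 4.21 and members on coding genes of 4.60. The plot of sites by gene shows that genes of both kinds stand at the top and at the bottom of the range. Neighbouring intervals are not separate binding events by themselves. When members within 10 bases of each other were joined, 59 remained in the small intestine.

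**Figure D2:**
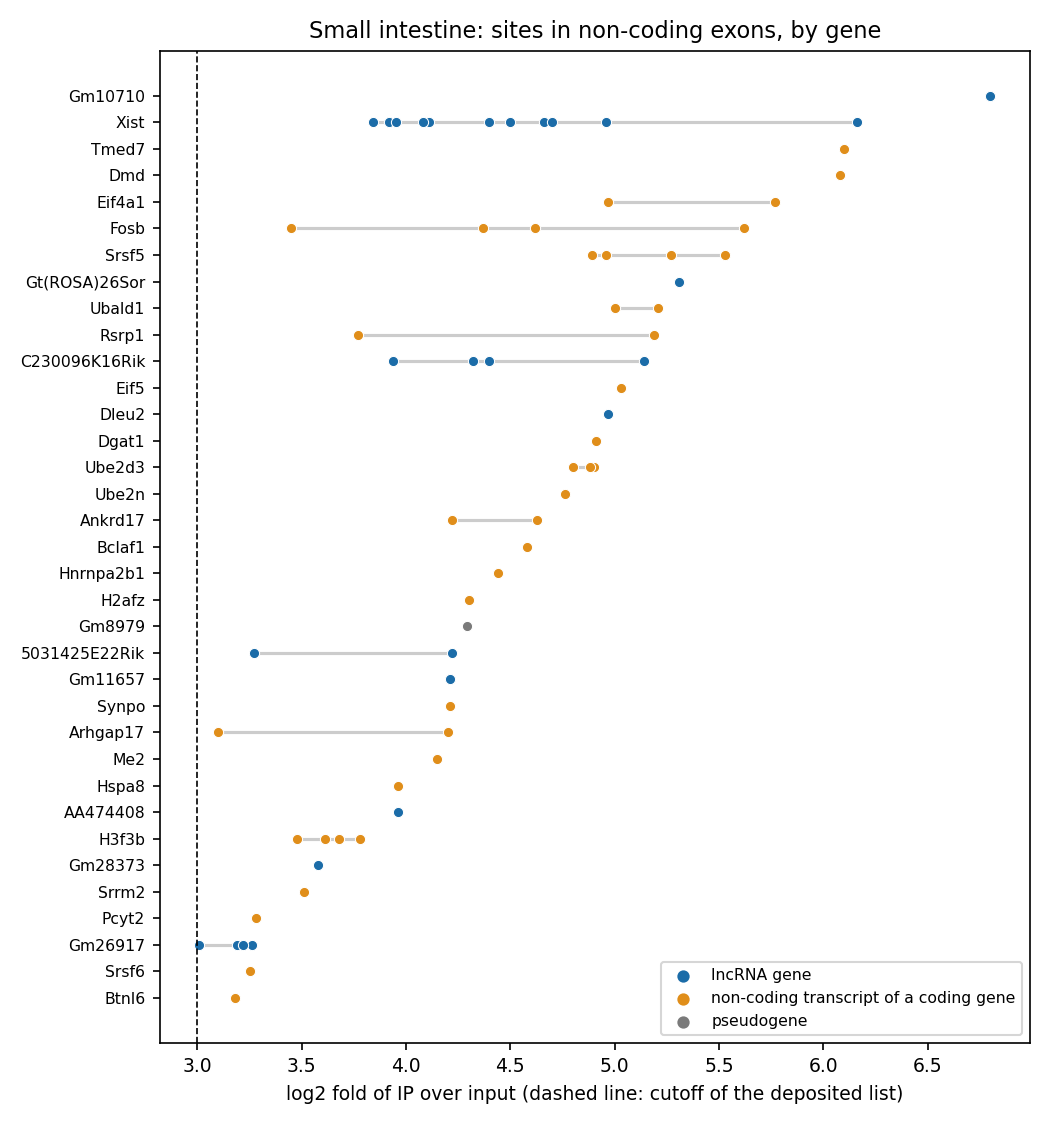
Log2 fold of IP over input for each of the 74 small intestine sites, one row per gene, ordered by the highest site and coloured by kind of gene. Grey lines join sites of 1 gene, points of equal value hide each other, and Xist has the most sites, from 3.84 to 6.16.

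Xist carried 12 of the 74 small intestine sites, more than any other gene, and all 12 of its peaks lay in exons. Along the spliced transcript of 17946 bases, 4 sites stood side by side between bases 1048 and 1225, in the first exon. Their log2 folds were 4.70, 4.08, 4.50 and 6.16 in that order, and the last was the highest on Xist. The next site followed at bases 1542 to 1584 with a log2 fold of 4.11. The other 7 sites began at or after base 9117. A pair at bases 9117 to 9233, at the end of exon 1, had log2 folds of 3.95 and 4.96. The site that began at base 9543, in exon 2, ran past the edge of that exon and reached the highest −log10 p on Xist, 32.6, with a log2 fold of 3.92. One site in exon 6 had a log2 fold of 4.66. In exon 7, the last, 2 sites at bases 11835 to 11936 had 3.84 and 3.92, and 1 at bases 17887 to 17930, close to the 3′ end, had 4.40. The long stretch of exon 1 between bases 1584 and 9117 held no peak. Of the 12, the site at bases 9183 to 9233 is less certain in its place, since 67 other stretches of the genome aligned to its middle 60 bases (at least 40 bases at 80% identity) and it matched a ribosomal RNA entry.

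**Figure D3:**
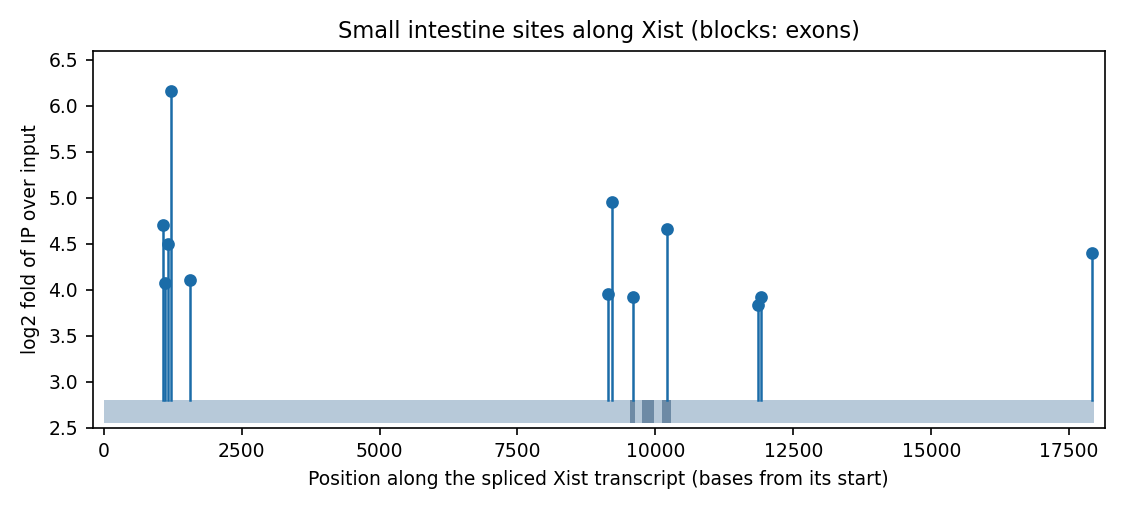
Log2 fold of the 12 small intestine sites at their position along the spliced Xist transcript, in bases from its start, above blocks that mark its 7 exons. Of the sites, 5 lie between bases 1048 and 1584 and 7 at or after base 9117, with none between.

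Neither colon list had a called peak on Xist, although they held 260 (mAb) and 171 (rAb) peaks on the X chromosome, where the small intestine list held 26. The mAb list had 3 peaks on Ddx3y and 1 on Uty, with log2 folds of at most 2.15, and the rAb list had 1 peak on Eif2s3y, with a log2 fold of 0.92. These are genes of the Y chromosome, on which the mAb list had 11 peaks in all, the rAb list 7 and the small intestine list 0. None of the peaks on the named genes was a site, while the small intestine list held sites only. The labels do not state the sex of the colon mice, and the study's methods give wild-type female mice for eCLIPseq of IECs without naming the tissue. A figure legend of the study gives wild-type mice for the colon, without their sex. The peaks on Ddx3y, Uty and Eif2s3y were faint, with a −log10 p of at most 0.51, and values of the other Y peaks are not given here. Sex of the colon mice is uncertain here. The part of sex in the Xist result was not tested.

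Gm10710, a lincRNA of a single exon on chromosome 3, carried the highest log2 fold of any member. Its 4 intervals of 4 to 6 bases stood next to each other at 83128006 to 83128026 and shared 1 value, a log2 fold of 6.80 with a −log10 p of 24.2, so they are best read as 1 place. Gm11657, an antisense transcript on chromosome 11, had 3 intervals of 3, 8 and 14 bases that shared a log2 fold of 4.21, the last of them apart from the other two. Neither gene had any peak in a colon list.

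Other lncRNA genes had 1 to 4 sites in the small intestine. C230096K16Rik on chromosome 5 belongs to the GENCODE class TEC, for transcripts that await experimental support. It lies inside the coding gene Klf3 on the same strand, and the deposited list places its sites in an intron of Klf3, so reads of the Klf3 precursor cannot be told apart from it. Its 4 sites lay between the annotated start, which the first site crossed, and base 407 of the transcript, with log2 folds of 3.94, 4.40, 4.32 and 5.14 from 5′ to 3′. Gt(ROSA)26Sor, the locus widely used to insert transgenes in mice, had a log2 fold of 5.31 at bases 67 to 138 of its longest transcript. Dleu2, which hosts microRNAs of the tumor-suppressor locus deleted in lymphocytic leukemia, had 1 site of 4.97. The lincRNA 5031425E22Rik had 2 sites, of 4.22 and 3.27, and AA474408, also of class TEC, had 1 site of 3.96 with a −log10 p of 68.2. Gm26917 stood apart, since its 4 intervals of 3 to 12 bases were at the −log10 p cap of 400 while their log2 folds, 3.01 to 3.26, were just over the cutoff. It ends 11 bases before a gene annotated as ribosomal RNA, CT010467.1, on the other strand of chromosome 17. The ribosomal reference was held only in part, so whether reads on Gm26917 come from ribosomal RNA was not tested.

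Among coding genes, 24 carried the 40 small intestine sites on non-coding transcripts, and 38 of these sites lay wholly in an intron of the gene's longest coding transcript. The first intron held 22 of them. Reads of the unspliced precursors of these genes cannot be told apart from reads of the non-coding transcripts. Retained-intron transcripts alone accounted for 27 of the 74 members, and 6 more lay on both a retained-intron transcript and another processed transcript. Srsf5, an SR protein that guides splice site choice, had 4 such sites of its 7 sites in the list. Of these, 3 stood side by side in intron 5 of 7, with log2 folds of 4.89, 5.53 and 4.96, and 1 lay in intron 1, for 70.1% of its length in the retained-intron exon, with 5.27. Fosb, a subunit of the AP-1 transcription factor, had 4 sites, all in intron 1, with log2 folds of 3.45, 4.62, 4.37 and 5.62 from 5′ to 3′. H3f3b, which encodes the replacement histone H3.3, had 4 sites in intron 3 between 3.48 and 3.78. Eif4a1, the DEAD-box helicase that unwinds mRNA for initiation, had 2 sites in intron 1, of 5.77 and 4.97. Dmd, the dystrophin gene, had an interval of 4 bases with 6.08 in intron 62 of 78. Tmed7, a cargo receptor of the early secretory pathway, had 6.10 in its last intron.

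Several further hosts encode proteins that act on RNA, and they were picked out after their values were seen. Rsrp1 had sites of 5.19 and 3.77 in intron 3, Eif5, an initiation factor, had 5.03, Bclaf1 had 4.58, Hnrnpa2b1, an hnRNP protein that binds RNA in the nucleus, had 4.44, Srrm2, a scaffold of nuclear speckles, had 3.51, and Srsf6, another SR protein, had 3.25. Ube2d3, a ubiquitin-conjugating enzyme, had 3 sites of GC content over 80% in intron 1, at 4.80, 4.90 and 4.88. Sites on coding hosts did not stand apart in fold from those on lncRNA genes, and the ranges of both overlapped over most of their length.

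In base content, members were slightly richer in GC and held runs of GGGG more often than their lists as a whole. The colon values include members on Gm26917 and on Gm42418, a gene described below, which were 18.8% of mAb and 18.5% of rAb members. Most of the members on these genes had a GC content over the median of their whole list. The part of these genes in the differences of GC and GGGG was not tested. The median GC content was 62.7% for small intestine members and 59.7% for the whole list, 57.1% against 56.0% for mAb, and 57.1% against 55.6% for rAb. A run of GGGG stood in 37 of 74 small intestine members (interval 38.1 to 61.9%), where 40.3% of all peaks of the list had one. For mAb the share was 27.5% (23.1 to 32.3%) beside 22.8% of all peaks, which lies just below that interval, and for rAb 24.5% (18.7 to 31.1%) beside 19.3%, where the interval of the members holds the share of the list, as it does in the small intestine. Only the RNA strand was searched. The median distance to an annotated transcript start was 408 bases for members against 960 for all peaks in the small intestine, 724 against 3355 for mAb and 984 against 2902 for rAb. Within 200 bases of a start lay 28.4% of small intestine members against 16.3% of all peaks and 24.3% against 17.2% for mAb, but 19.5% against 19.6% for rAb. Part of the shorter medians is given by the rule, because non-coding transcripts that begin inside a gene add starts next to their own exons.

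The colon lists held every called peak, enriched or not, so most members were faint. Whole reads could be traced from the paired values of 284 of 378 mAb members and 159 of 200 rAb members, by reading the commonest log2 fold as 3 IP reads over 1 input read. The median was 3 IP reads and 1 input read in each list, and 0 and 1 input reads cannot be told apart, since the search began at 1. The commonest log2 fold was 2.15 for mAb and 3.24 for rAb, and 37.3% and 46.5% of members had exactly this value, beside 25.8% and 24.9% of all peaks. On this reading the input library was 3.15 times as deep as the IP library for rAb and 1.48 times for mAb, which puts 3 reads over 1 above the fold cutoff for rAb. The member median of 1.96 for mAb (1.15 over all peaks) and of 3.24 for rAb (2.24 over all peaks) lie at or close to this step. A peak of 3 reads over 1 had a −log10 p of 0.51 for mAb and 1.34 for rAb, below the cutoff, so binding at this level was not detectable at this depth.

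**Figure D4:**
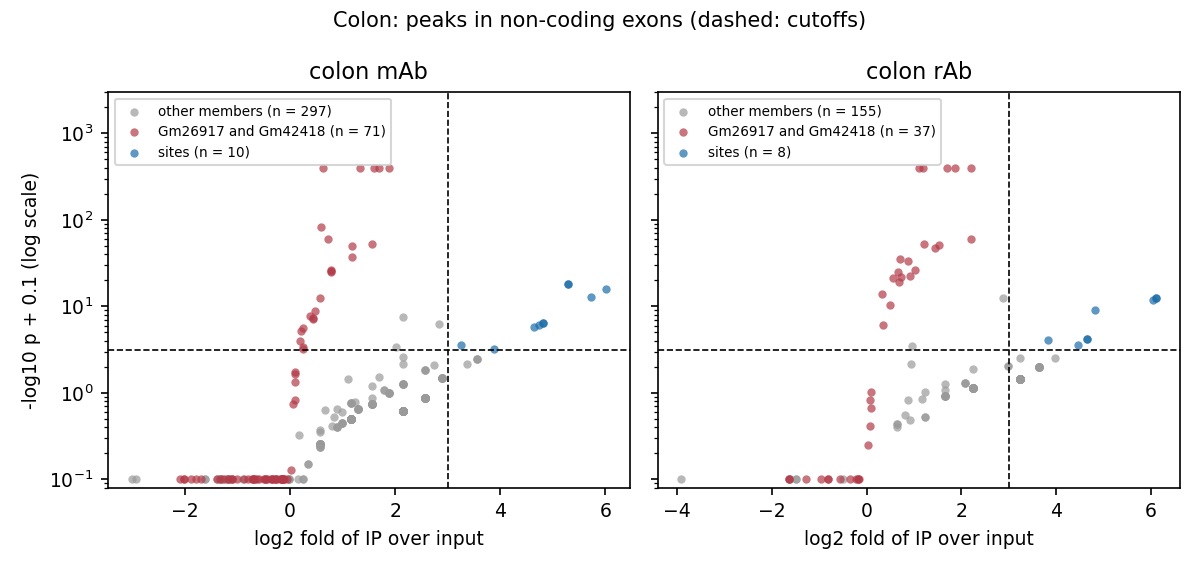
Log2 fold against −log10 p plus 0.1 (log scale) for all members of the colon mAb list (left) and the colon rAb list (right), with dashed lines at the cutoffs of 3. Sites (blue) are the 10 and 8 points to the upper right, and the members past the p cutoff to the left of the fold cutoff are mostly on Gm26917 and Gm42418 (red).

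A large part of the colon members came from 1 place. Gm26917 had 55 members for mAb and 24 for rAb, and Gm42418, which lies across the ribosomal RNA gene on the other strand, had 16 and 13. Together they made up 18.8% (15 to 23.1%) and 18.5% (13.4 to 24.6%) of members. Their log2 folds ran from -2.10 to 1.89 for mAb and from -1.64 to 2.21 for rAb, and none was a site. Of the members past the −log10 p cutoff that missed the fold cutoff, 23 of 26 (mAb) and 20 of 22 (rAb) were on these genes. The mAb interval under the small intestine sites of Gm26917 had a log2 fold of -1.70, which is depleted in IP. Without both genes, 3.26% of mAb members and 4.91% of rAb members were sites, and the sites themselves were unaffected. Whether reads on these genes come from ribosomal RNA was not tested, so these members are not read as binding to lncRNA.

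Of the 10 mAb sites, 6 overlapped a member site of rAb (interval 26.2 to 87.8%), and 5 of the 8 rAb sites overlapped one of mAb, or 62.5% (24.5 to 91.5%). Over all sites, 76 of 201 mAb sites (37.8%) overlapped an rAb site and 78 of 182 rAb sites (42.9%) a mAb site, and both shares lie within the intervals of the members. The member genes were Ak7, Gm38077, Gm805 and Mettl8. Gm805, a lincRNA of chromosome 12, had adjacent intervals at bases 714 to 739 of its transcript, with a log2 fold of 4.81 from 19 IP reads over 1 input read for mAb and of 6.11 from 22 over 1 for rAb. Mettl8, an RNA methyltransferase gene, had the same 20 bases in both lists, with 4.73 (18 over 1) and 6.05 (21 over 1). Gm38077 had 6.02 (44 over 1) and 3.82 (9 over 2), and Ak7, an adenylate kinase gene, had 5.29 (53 over 2, in 2 intervals) and 4.82 (18 over 2). Gm38077 and Ak7 hold the adapter letters shown above, at 3 of the 10 mAb sites and 2 of the 8 rAb sites, and no small intestine member does. Without peaks that match the adapter or ribosomal RNA, 7 mAb sites and 6 rAb sites remained, or 1.88% and 3.06% of members, and the overlap came down to 3 sites of each list, on Gm805 and Mettl8. The 6 rAb sites still include AA474408, whose letters read like ribosomal RNA that the reference held only in part. None of these 4 genes had a member in the small intestine list.

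The remaining colon sites were Me2, Pibf1, C230096K16Rik and Fosb for mAb and AA474408, Gm20544 and Igfbp4 for rAb. Me2, a mitochondrial malic enzyme, had a log2 fold of 5.73 from 36 IP reads over 1, and Pibf1 had 4.65 from 17 over 1. Gm20544 and AA474408 each had 4.65 from 8 reads over 1. Igfbp4, a binding protein of insulin-like growth factors, had 4.46 from 7 over 1, in a repeat to which 7392 other stretches of the genome aligned. Just outside the cutoff, Hnrnpa2b1 and another Fosb peak in the mAb list had a log2 fold of 3.56 from 8 reads over 1 with a −log10 p of 2.39, and Srsf6 had a −log10 p of 6.14 with a log2 fold of 2.84.

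Set against the small intestine, 3 of its 74 member sites overlapped a mAb site and 1 overlapped an rAb site, which is 4.05% (0.844 to 11.4%) and 1.35% (0.0342 to 7.30%) of them and 3 of 10 and 1 of 8 of the colon sites. Over all 1278 small intestine sites the shares were 3.76% and 0.704%, within the same intervals. C230096K16Rik had a log2 fold of 3.94 in the small intestine and 3.89 with mAb at the start of its transcript. Of the mAb peak, 42.9% of the bases lay in the exon, and this site was lost when at least 50% were required, which left 9 mAb sites and 7 genes in more than 1 list. Fosb had 3.45 and 3.26 in intron 1. Me2 had 4.15 and 5.73 in its first intron. AA474408 had 3.96 in the small intestine, 4.65 with rAb and 2.15, below the cutoff, with mAb. Another 9 stretches aligned to the small intestine site of AA474408 and 12 to the rAb site, so the place of these reads is uncertain. With these, 8 genes had a member site in more than 1 list and 0 in all 3. No such count over all genes with a site is given, and the colon lists had only 10 and 8 member sites. The counts are thus not read as particular to non-coding exons.

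All called colon peaks, past the cutoff or not, were also set against the bases of small intestine sites. Any called mAb peak lay on 18 of the 74 sites and any called rAb peak on 3, as the plot of paired folds shows. These are 24.3% (15.1 to 35.7%) and 4.05% (0.844 to 11.4%) of members, where 35.8% and 19.3% of all small intestine sites had one. Those with a mAb peak below the cutoff included Eif5 (2.89), Gt(ROSA)26Sor (2.56), 5031425E22Rik (2.56), Ankrd17 (2.15), Bclaf1 (1.89) and Ube2d3 (1.56), each from 3 to 8 IP reads. Of the 35 small intestine genes, 29 had some called peak in a colon list anywhere on the gene and 5 had a site there. No share over all genes of the small intestine list is given beside these counts, so they are not read as particular to members. Xist, Gm10710, Gm11657, Gm8979, Btnl6 and Dmd had no called peak in either colon list.

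**Figure D5:**
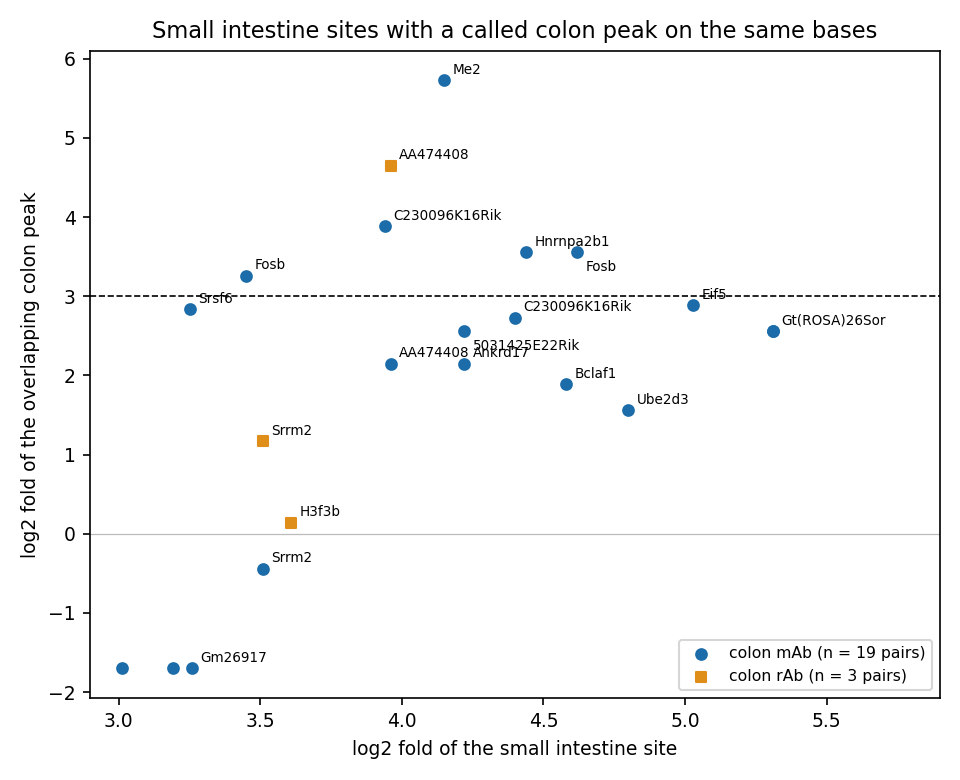
Log2 fold of small intestine sites (horizontal axis) and of the colon peak called on the same bases (vertical axis), for 19 pairs with mAb (circles) and 3 with rAb (squares), with the colon cutoff of 3 dashed. A site each of Me2, AA474408 (rAb), C230096K16Rik and Fosb is past both colon cutoffs, another Fosb site and Hnrnpa2b1 at 3.56 miss the p cutoff, and Gm26917 and Srrm2 (mAb) lie below 0.

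Few of the known non-coding RNAs in the lists of genes had a member peak, and in the colon none of them had a site. Sites made up only 1.22% of all mAb peaks and 1.99% of all rAb peaks, so their absence here tells little about these RNAs. No share over all annotated non-coding genes is given beside the counts of genes with a member. Of 23 snoRNA host genes, 19 of them under that name in the annotation, 0 had a member in the small intestine, 2 had one for mAb and 1 for rAb, and none had a site. Snhg5 had 2 mAb peaks of 2.56 and 0.56. Dancr, a snoRNA host, had 6 mAb peaks from -1.62 to -1.10 and 1 rAb peak of -0.49, all with fewer scaled reads in IP than in input. Of 25 nuclear, X-inactivation or imprinted genes, 23 were in the annotation. In the small intestine 3 of them had a member, namely Xist, Dleu2 and Gm26917, the last beside a ribosomal RNA gene. For mAb 7 of them had a member and for rAb 3, with 0 sites. Tug1, a lncRNA of nucleus and cytoplasm, had mAb peaks of 2.89 and 0.83 and rAb peaks of 2.24, 1.65 and 0.65, and H19, an imprinted lncRNA, had 2 rAb peaks at the commonest value of 3.24, which rests on 3 IP reads. Firre, Ftx, Miat and Nespas had mAb peaks between 0.56 and 2.15 only. None of 10 other microRNA host genes, 7 of them in the annotation, had a member in any list, while Dleu2, counted above among nuclear genes, also hosts microRNAs. The lists give no expression level for genes without a called peak.

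Of the non-coding partners named for DDX5, Sra1 had no member in any list. The rule leaves out peaks on coding sequence or UTR, so a peak on such a part of Sra1 would not count. Rmrp had 3 mAb members with log2 folds from -1.62 to -1.16 and 2 rAb members at -1.48 and -1.62, and Rpph1, the RNA of RNase P, had 1 each at -0.90 and -1.49. Both RNAs were thus called as peaks by coverage while IP stood below input, in both colon lists. Terc, the telomerase RNA, had none.

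The labelled tissue was checked on markers over whole genes. The small intestine list held only peaks past the cutoff and the colon lists every called peak. Counts of peaks in the tissues are thus at unlike thresholds. Of 10 epithelial markers, 8 had a peak in the small intestine, 10 for mAb and 9 for rAb. Small intestine enterocyte markers had a peak for 7 of 8 in the small intestine and 0 of 8 in both colon lists, and colonocyte and goblet markers for 1 of 7, 7 of 7 and 2 of 7. Of 8 immune markers 0, 1 and 1 had a peak, the 1 being Lyz2, with Cd3e and Ptprc at 0. Stromal and muscle markers had 0 of 7 in the small intestine, 5 of 7 with 92 peaks in mAb and 4 of 7 with 77 peaks in rAb, none of them a site. At the cutoff, epithelial markers had 46 sites in the small intestine, 4 for mAb and 0 for rAb. Small intestine enterocyte markers had 53, 0 and 0 sites, and colonocyte and goblet markers 1, 1 and 0. The part of stromal RNA in the colon members was not tested.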

How the data were processed

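The authors trimmed reads (cutadapt 1.9.1), aligned them to mm10 (STAR 2.4.0i, SAMtools 1.4.1, per the submitters' processing notes), took peak regions from the IP library (CLIPper) and deposited for each peak a log2 fold and a −log10 p against input. The authors' −log10 p is capped at 400, and the small intestine peaks were merged over 2 replicates by the Irreproducible Discovery Rate. A further deposited list without a sample of its own was left out.

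Peaks were placed on GENCODE M21 (GRCm38) by any overlap on their strand, and the gene with the longest exon overlap named a peak. Ties went to a gene without coding transcript. Members and gene lists were chosen with earlier results of these data known. Named were, per list, the 8 sites of highest fold on separate genes, the 5 genes with most sites, every gene with a site in more than 1 list and the list genes; others were picked after their values were seen. Colon reads were traced with the commonest log2 fold read as 3 IP reads over 1 input read and a −log10 p matched within 1% (98.8% of 13011 mAb and 99.2% of 8282 rAb peaks that could be tried); depth of the small intestine is unknown. Ribosomal matches (421 sequences, BLAST+ 2.17.0, 20 aligned bases at 90% identity) and the adapter end were sought with 15 bases on either side. Scripts (Python with SciPy) were tested on simulated peaks and reads.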

Additional observations from a re-analysis of the deposited data

How the results depend on the processing

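No paired analysis was possible because each group has 1 merged list, and for the same reason no replicate could be left out in turn. Of the 221 values recomputed, 191 stayed within 1.5 times of the main count, or within its interval for a share or median, and 30 moved. A −log10 p cutoff of 5 left 4 rAb sites on 3 genes and 4 genes in more than 1 list. A log2 fold cutoff of 4 raised the small intestine median to 4.84 and left 4 genes in more than 1 list, and colon medians do not use the cutoffs. A log2 fold cutoff of 1 in the colon gave 20 mAb sites (5.29% of members) and 19 rAb sites (9.50%), with 15 mAb and 11 rAb sites overlapping. Most of the mAb sites added by it were on Gm26917 and Gm42418, with log2 folds from 1.17 to 1.89, and the others were on Srsf6 and Rpl7a. With only genes without any coding transcript, members fell to 34 (small intestine), 177 (mAb) and 112 (rAb), sites to 34, 4 and 5, genes with a site to 11, 3 and 4, the overlap of colon sites to 3 and 3 and genes in more than 1 list to 4. The median log2 fold was then 0.73 for mAb and 2.24 for rAb. Without Gm26917 and Gm42418 the lncRNA genes had medians of 2.15 and 3.24, equal to those on coding genes. These are the commonest values of the lists, so equal medians do not show equal folds. The lower quartiles were 0.56 (mAb) and 2.11 (rAb), against 1.37 and 2.24 on coding genes. With only genes without any coding transcript, the share of sites on them is 100% by construction. Without ribosomal or adapter matches, 3 mAb and 3 rAb sites overlapped. Leaving out Gm26917 and Gm42418, chosen after seeing the data, moved none of the 20 results.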
